A study of Mus musculus with 2 samples.

Results

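The Ubd-high endothelial cells (ECs) of YUMMER1.7 melanoma-bearing mice were a group of 333 cells among 6999 ECs and 18823 barcodes in all. They were chosen by their own counts. A member had at least 500 detected genes, at most 10% mitochondrial unique molecular identifiers (UMIs, 1 per captured RNA molecule), a UMI of Cdh5 or Pecam1, and no UMI of Ptprc, Epcam, Cspg4 or Myh11. It also had UMIs of at least 3 of Ubd, Tnfrsf11b, Fam167b, Ildr2, Trp53i11 and Ido1, and of fewer than 3 of the vein genes Slc6a2, Vwf, Prss23, Car8, Selp and Cytl1. Since these counts selected the cells, the levels of the 6 markers below are a description. Cells were sorted as live CD31+CD45- from tumors of a melanoma line that forms immunogenic tumors, and the RNA was read at its 3′ end. The question was how loss of Dnmt1, the maintenance DNA methyltransferase, from ECs alters their RNA.

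One library came from control mice, whose genotype is given as C57BL/6, and 1 from Dnmt1iECKO mice of genotype Cdh5CreERT2;Dnmt1fl/fl;ZsGreenlsl/lsl, in which tamoxifen-activated Cre under an endothelial promoter deletes Dnmt1 and switches on a reporter. The study's methods name mice with the Cre and the reporter alone as controls, so the control genotype differs between the 2 sources, and whether controls received tamoxifen is not given in the sources used here. All mice were female and 8 to 10 weeks old, and each library pooled the tumors of 3 mice. The labels describe tumors under the skin of the shoulder, while the study's text on these cells describes lung tumors, and cells with lung epithelial and alveolar capillary genes were present in both libraries. With 1 library per condition there is no test of any difference between conditions: genotype, pool, and library cannot be told apart. Every interval below is a 95% interval that covers counting error only, not the spread between mice, and UMIs that are clustered in a few cells make it too narrow.

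Interferon gamma, released mainly by T and natural killer cells, signals through its receptor and JAK kinases to transcription factors at gamma-activated sites (GAS), and raises IRF1. IRF1 and the interferon-activated ISGF3 complex bind interferon-stimulated response elements (ISRE). In ECs the induced genes include antigen presentation genes, guanylate-binding proteins (GBPs) and immunity-related GTPases (IRGs), the T cell-attracting chemokines Cxcl9 and Cxcl10, the checkpoint ligand Cd274 (PD-L1), and Ido1, which breaks down tryptophan. Ubd encodes FAT10, a ubiquitin-like protein that interferon gamma and TNF raise together. Tnfrsf11b encodes osteoprotegerin, a decoy receptor for RANKL and TRAIL, Ildr2 a receptor-like protein of the immunoglobulin superfamily, and Trp53i11 a p53-induced membrane protein.

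To place these genes on the genome, promoters were read from RefSeq (GRCm38.p6) as 300 bases, from 250 before to 50 after the start of the gene. The motifs searched on both strands were GAS as TTCNNNGAA and the ISRE core as GAAANNGAA, which can overlap. GAS was in 8.47% and the ISRE core in 8.57% of 27025 promoters. Of the 19 GBP and IRG genes, 11 had a promoter entry: 6 of them (54.5%) held GAS and 10 (90.9%) held the ISRE core. Of the 6 markers, 4 had an entry (Ubd, Fam167b, Ildr2, Trp53i11). GAS was in 2 of them and the ISRE core in 0. Below are both marker promoters with GAS, then Cxcl9, a leading gene of the class, and the IRG gene Igtp, which holds both motifs. They are written 5′ to 3′ on the strand of the gene, with the motif letters in capitals. Fam167b is at chr4:129578531-129578830 (minus strand), Trp53i11 at chr2:93187298-93187597 (plus strand), Cxcl9 at chr5:92328030-92328329 (minus strand) and Igtp at chr11:58199306-58199605 (plus strand).
Fam167b: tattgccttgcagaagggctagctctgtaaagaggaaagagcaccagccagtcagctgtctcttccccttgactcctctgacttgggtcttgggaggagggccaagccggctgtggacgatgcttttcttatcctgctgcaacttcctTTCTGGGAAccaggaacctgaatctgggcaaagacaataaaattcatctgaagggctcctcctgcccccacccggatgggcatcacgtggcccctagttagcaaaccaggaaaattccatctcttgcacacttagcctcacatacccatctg
Trp53i11: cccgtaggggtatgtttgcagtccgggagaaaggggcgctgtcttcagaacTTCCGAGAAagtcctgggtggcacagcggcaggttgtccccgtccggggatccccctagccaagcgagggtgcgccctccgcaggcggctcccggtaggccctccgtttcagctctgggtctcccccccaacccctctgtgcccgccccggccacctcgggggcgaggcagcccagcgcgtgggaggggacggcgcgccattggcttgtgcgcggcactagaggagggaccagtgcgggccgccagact
Cxcl9: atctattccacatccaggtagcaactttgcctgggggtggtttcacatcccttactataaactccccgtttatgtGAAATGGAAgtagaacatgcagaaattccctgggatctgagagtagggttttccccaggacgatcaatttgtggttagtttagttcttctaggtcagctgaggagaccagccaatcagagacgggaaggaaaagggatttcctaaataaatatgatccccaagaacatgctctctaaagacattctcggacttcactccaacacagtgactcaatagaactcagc
Igtp: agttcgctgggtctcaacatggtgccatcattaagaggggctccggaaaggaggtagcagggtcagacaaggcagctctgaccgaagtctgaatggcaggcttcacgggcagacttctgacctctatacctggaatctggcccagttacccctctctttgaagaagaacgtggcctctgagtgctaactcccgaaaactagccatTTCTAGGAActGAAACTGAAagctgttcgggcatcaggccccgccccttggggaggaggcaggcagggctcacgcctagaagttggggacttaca
The GAS letters begin 102 bases before the gene start in Fam167b, 199 before it in Trp53i11 and 45 before it in Igtp, and the ISRE letters begin 175 bases before it in Cxcl9. A match is a run of letters and not a measured binding site. The Ubd promoter held neither motif and 0 CpG dinucleotides, against a median of 7 CpG over all promoters, and that of Cxcl9 held 4.

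The control library held 9301 barcodes and 123830489 UMIs, and the Dnmt1iECKO library 9522 barcodes and 141433493 UMIs. Under the rule's filters 4922 control and 2077 Dnmt1iECKO barcodes were ECs, so the Dnmt1iECKO library held far fewer ECs among a similar number of barcodes. Members were deeper than other ECs, at a median of 21121 (control) and 19448 (Dnmt1iECKO) UMIs against 9425 and 9402.5, since a rule that counts detected genes favors deep cells. All levels below are therefore CPM, the UMIs summed over the cells of a class and scaled to a common total for that class, and shares of cells with a UMI are also given after thinning each cell to a fixed depth. The libraries shared 29 barcodes, and 1 member in each library carried a shared one. Doublets were scored and left in: 257 control and 263 Dnmt1iECKO cells were marked, of which 82 control and 10 Dnmt1iECKO cells were ECs.

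In the control library 202 of 4922 ECs were members (4.10%, interval 3.57 to 4.70), and in the Dnmt1iECKO library 131 of 2077 (6.31%, interval 5.30 to 7.44). The ratio of the shares was 1.54-fold (interval 1.22 to 1.92). With every EC thinned to 2000 UMIs before the rule was applied, 34 of 4564 control ECs (0.745%) and 22 of 1904 Dnmt1iECKO ECs (1.16%) passed, a ratio of 1.55-fold whose interval (0.864 to 2.73) includes equal shares. This left out 358 and 173 shallower ECs. Just outside the rule, 333 control and 149 Dnmt1iECKO ECs had UMIs of exactly 2 markers, and just inside it 103 and 55 members had exactly 3. A further 23 control and 31 Dnmt1iECKO ECs had at least 3 markers but also at least 3 vein genes and so were left out.

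The name Ubd-high holds for the summed level but not for each cell. A Ubd UMI was present in 49.0% of control and 62.6% of Dnmt1iECKO members, against 1.65% and 3.60% of other ECs. Trp53i11 was the most widespread marker (85.6% and 84.7% of members), and Ido1 was found in 53.0% and 49.6%. Interferon gamma protein was not measured. The sort was for CD45- cells, and any leukocytes that passed it were not examined here as a source. All 6 markers were seen in 25 control and 16 Dnmt1iECKO members. Members with 3 markers had a median of 17461 (control) and 15387 (Dnmt1iECKO) UMIs, and those with 5 or 6 had 30529 and 21126. These counts therefore cannot tell unlike cells from uneven sampling of the markers.

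Among the markers, Ubd stood at 216 CPM in control and 305 CPM in Dnmt1iECKO members (log2 ratio 0.50, interval 0.37 to 0.63). In other ECs it stood at 5.52 and 42.2 CPM (log2 ratio 2.94). These include ECs with at least 3 vein genes, which the rule keeps out of the class and in which Ubd was 23.2 and 165 CPM. In the ECs left once these and the type I interferon-high ECs described below were set aside, Ubd was 3.03 and 7.91 CPM. Fam167b was 75.9 CPM in control and 145 CPM in Dnmt1iECKO members (0.93, interval 0.73 to 1.13), and 7.85 and 22.1 CPM in other ECs. Tnfrsf11b was 167 and 187 CPM, and Trp53i11 167 and 162 CPM. Ildr2 was 180 CPM in control and 135 CPM in Dnmt1iECKO members (−0.42), and Ido1 118 and 99.8 CPM (−0.25). Within the class Ubd, Fam167b and, by a small step (0.16, interval 0.00 to 0.32), Tnfrsf11b were higher in the Dnmt1iECKO library, while Ildr2 and Ido1 were lower. In other ECs the log2 ratios were −0.30 for Tnfrsf11b, 0.72 for Ildr2 and 0.19 for Ido1, each opposite to that in members. A single control cell held 19.8% of the control Ubd UMIs of members. Because these 6 genes chose the cells, their ratios in members are shaped by the rule and are no finding about the condition. The plot of markers and leading genes gives these levels beside those of other ECs.

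**Figure D1:**
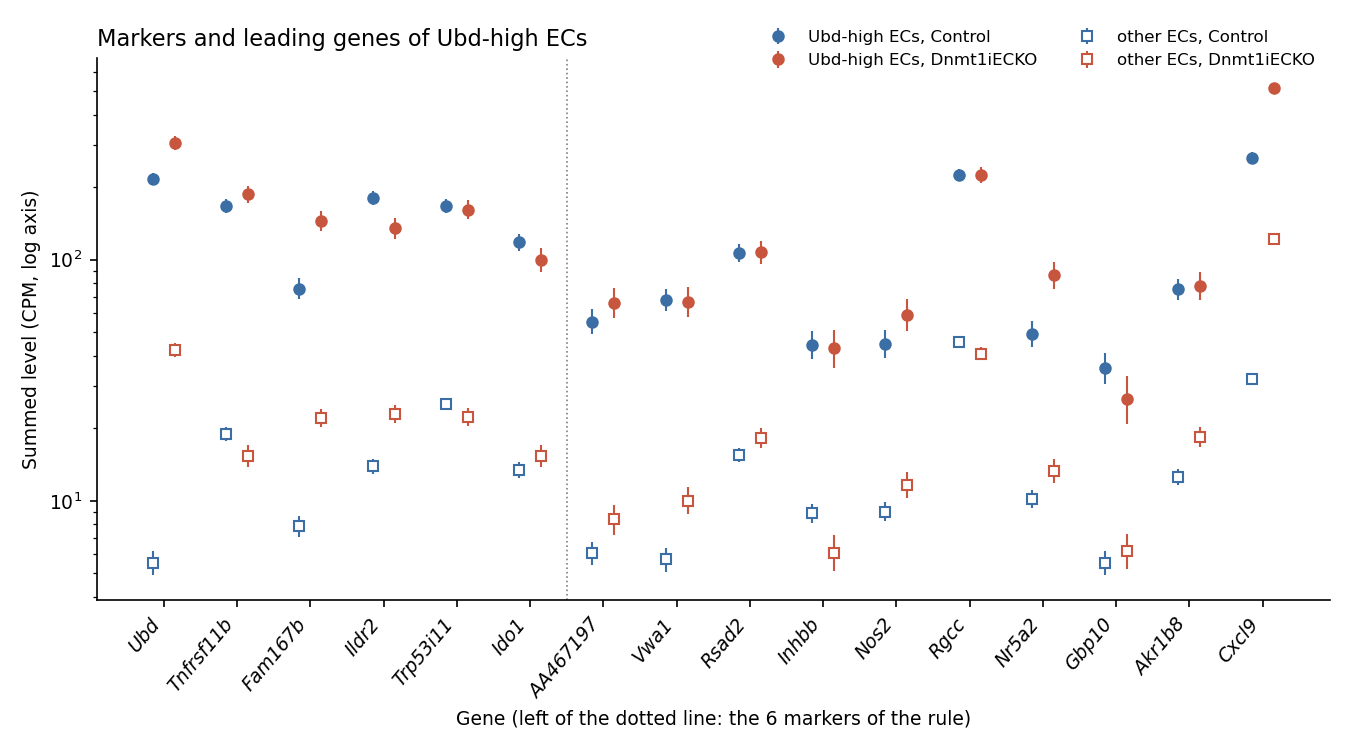
Summed level (CPM, log axis) of the 6 markers of the rule, left of the dotted line, and of the 10 leading genes, in Ubd-high ECs (filled) and other ECs (open) of each library, with 95% counting intervals. Cxcl9 was 264 CPM in control and 516 CPM in Dnmt1iECKO members, against 31.9 and 122 CPM in other ECs.

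Beyond the rule, 9805 genes with at least 50 UMIs in members were compared with other ECs of the same library. Of these, 252 (2.57%) were at least 2-fold higher and 164 (1.67%) at least 2-fold lower in members of both libraries. The median log2 difference over all genes was −0.03 in control and −0.01 in Dnmt1iECKO. The minimum of 50 UMIs was set on members alone, so a gene high in members passed it more easily than a gene low in them. The excess of higher over lower genes therefore cannot be read as a trait of the class. The 10 leading genes, taken by the lower of the 2 library ratios among genes detected in at least 25% of members, were AA467197, Vwa1, Rsad2, Inhbb, Nos2, Rgcc, Nr5a2, Gbp10, Akr1b8 and Cxcl9. AA467197 was 55.4 CPM in control and 66.2 CPM in Dnmt1iECKO members, and 6.05 and 8.38 CPM in other ECs (log2 3.20 and 2.98). Vwa1, an extracellular matrix protein, was 68.2 and 66.9 CPM in members and 5.71 and 10.0 CPM in other ECs. These were the widest gaps between members and other ECs outside the rule.

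Nos2, the inducible nitric oxide synthase, was 44.7 CPM in control and 59.0 CPM in Dnmt1iECKO members, against 9.01 and 11.7 CPM in other ECs, and was found in 108 and 73 members. Inhbb, the beta B subunit of inhibins and activins, was 44.3 and 42.9 CPM in members and 8.88 and 6.09 CPM in others. Rgcc, a regulator of the cell cycle, was 225 and 226 CPM in members, and Nr5a2, a nuclear receptor, was 49.3 and 86.1 CPM. In other ECs Rgcc was 45.6 and 40.8 CPM and Nr5a2 was 10.2 and 13.3 CPM. Rsad2 (viperin, an antiviral protein) was 106 and 107 CPM, but 1 cell held 55.6% of its control UMIs and 1 cell 51.8% of its Dnmt1iECKO UMIs, so its level says little of the other members.

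**Figure D2:**
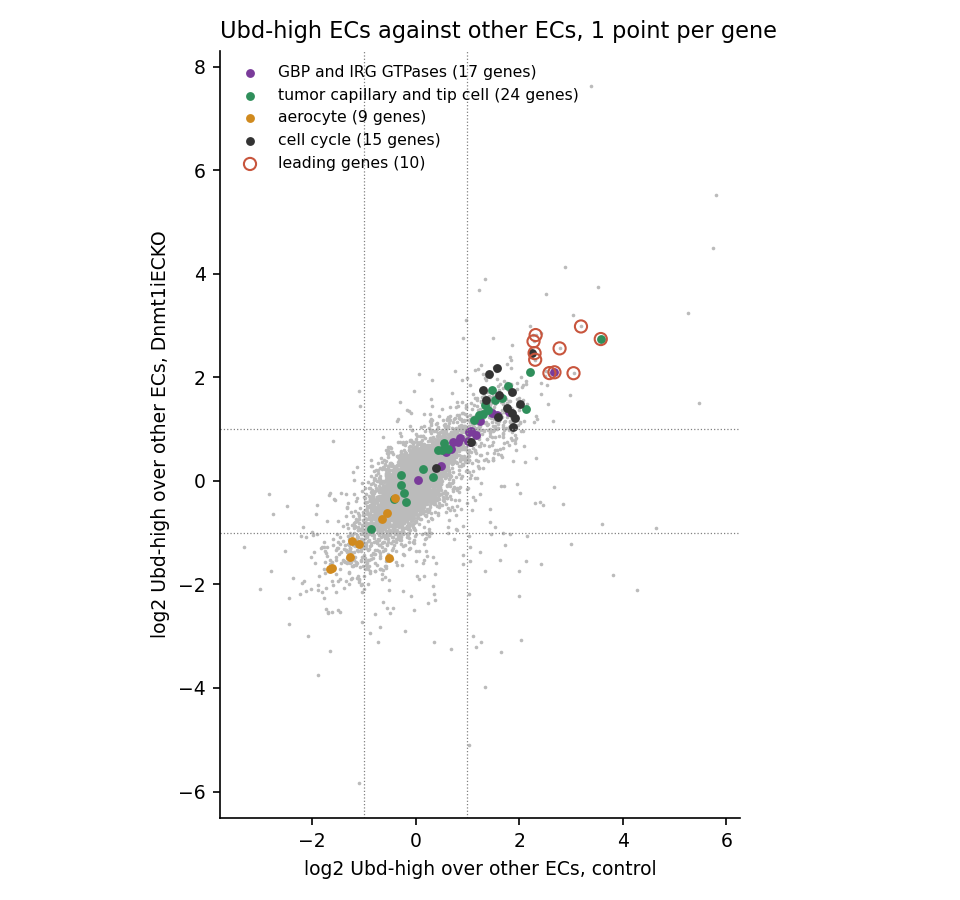
Each point is a gene, placed by its log2 ratio of summed CPM in Ubd-high ECs over other ECs in control (x axis) and in Dnmt1iECKO (y axis), with named gene groups in color and the leading genes ringed. The GBP and IRG genes lie above 0 on both axes, with medians of 1.03 and 0.82.

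The GBP and IRG GTPases, which attack the membranes around intracellular pathogens, were higher in members. All 17 tested genes were above other ECs in both libraries, and 5 (Gbp2, Gbp3, Gbp5, Gbp10 and Tgtp1) were at least 2-fold higher in both. Their median log2 difference was 1.03 in control and 0.82 in Dnmt1iECKO, beside −0.03 and −0.01 over all genes. Gbp2 was 627 CPM in control and 610 CPM in Dnmt1iECKO members against 211 and 253 CPM in other ECs. Irgm2 marked the low end, at 157 and 141 CPM in members against 151 and 139 CPM. Tgtp1 and several Gbp genes have near-identical copies, so the split of their reads is uncertain.

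Among the interferon receptor and JAK-STAT genes, 0 of the 18 reported here were at least 2-fold higher in members of both libraries. The receptor chain Ifngr1 was 147 and 159 CPM in members and 149 and 149 CPM in others, with both intervals of the ratio including equal levels, and Ifngr2 was 89.0 and 89.2 CPM against 99.1 and 84.6 CPM. Irf1 was lower in members, at 927 and 815 CPM against 1126 and 1061 CPM, but other ECs include vein and type I interferon-high ECs. Irf1 was 1360 and 1230 CPM in vein ECs and 1502 and 1274 CPM in type I interferon-high ECs. In the ECs left once these were set aside it was 976 and 938 CPM.

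Of the 2 chemokines for the T cell receptor CXCR3 that were tested, Cxcl10 was 609 CPM in control and 536 CPM in Dnmt1iECKO members, against 175 and 270 CPM in other ECs. Cxcl9 was higher than in other ECs by 3.05 (control) and 2.08 (Dnmt1iECKO) on the log2 scale. Among checkpoint ligands, 7 of 8 tested genes were higher in members of both libraries, and Nectin2 was at least 2-fold higher in both. Cd274 was 229 and 188 CPM in members against 85.2 and 94.4 CPM, or 1.43 and 1.00 on the log2 scale.

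Antigen presentation genes were higher by a smaller step. All 23 class I genes were above other ECs in both libraries, with medians of 0.39 and 0.40, and 0 of them reached 2-fold in both. B2m, the light chain of class I molecules, was 5974 and 6099 CPM against 4572 and 4643 CPM, and Tap1, a subunit of the peptide transporter, 189 and 195 CPM against 91.4 and 105 CPM. Of 8 class II genes, 7 were higher in both, with medians of 0.82 and 0.76. Cd74, the invariant chain, was 3133 and 3406 CPM against 1462 and 1699 CPM. Ciita, the class II transactivator, was 78.1 and 83.7 CPM against 45.0 and 42.5 CPM.

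Tumor capillary and tip cell genes were also higher in members. Of 24 tested genes, 12 were at least 2-fold higher in both libraries. Among them were the basement membrane genes Col4a1, Col4a2, Col18a1, Hspg2 and Lamb1, the tip cell genes Esm1 and Angpt2, and the receptor gene Aplnr. Aplnr was found in 128 control and 81 Dnmt1iECKO members, but the top 5% of members held 86.6% and 91.9% of the UMIs of Esm1 and 80.3% and 81.5% of those of Angpt2. The group medians were 0.88 and 0.95. Col4a1 was 1971 CPM in control and 1903 CPM in Dnmt1iECKO members against 679 and 647 CPM in other ECs, and Sparc, a matrix-binding protein, 2634 and 2790 CPM against 1072 and 1148 CPM. Vwa1 is in this list as well as among the leading genes.

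Alveolar aerocyte genes were lower. Of 9 tested genes, 5 were at least 2-fold lower in members of both libraries and the medians were −1.09 and −1.21. Car4, a carbonic anhydrase of lung capillaries, was 346 and 250 CPM against 812 and 561 CPM, and Ednrb, an endothelin receptor, 167 and 102 CPM against 514 and 330 CPM. General capillary genes had medians of −0.10 and 0.13. Cells were counted on separate lists of 6 genes each, with medians of 0.18 and 0.37 (general capillary) and −1.16 and −1.35 (aerocyte). With each cell thinned to 5000 UMIs, 90.9% of control and 81.2% of Dnmt1iECKO members had UMIs of at least 3 of these general capillary genes. In other ECs these shares were 73.0% and 70.4%. UMIs of at least 3 of these aerocyte genes were in 21.8% and 10.9% of members against 33.7% and 25.8% of other ECs. By these counts general capillary genes were more widespread among members than among other ECs and aerocyte genes less so. Other ECs include 364 control and 273 Dnmt1iECKO vein ECs, which the rule keeps out of the class. How far this limit shaped the contrast was not tested.

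Cell cycle genes were higher in members: 15 of 15 in both libraries, 13 of them at least 2-fold, with medians of 1.61 and 1.48. Mki67 was 192 and 238 CPM against 47.3 and 85.3 CPM. At 5000 UMIs, 12.2% of control and 12.5% of Dnmt1iECKO members had UMIs of at least 3 cell cycle genes, against 3.30% and 4.01% of other ECs, so most members lacked them at this depth. Genes induced by tissue dissociation were lower in members (medians −0.43 and −0.49). Without the cells that had UMIs of at least 3 cell cycle genes at full depth, 142 control and 90 Dnmt1iECKO members remained, and 122 rather than 252 genes were at least 2-fold higher in both libraries. Fewer genes were tested there, 8306 with the rule's genes counted, so these counts do not share a base.

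The levels followed the number of markers a cell showed. In cells with 0, 1, 2, 3, 4, and 5 or 6 markers, Igtp in the control library was 112, 120, 158, 204, 277 and 376 CPM, and in the Dnmt1iECKO library 85.9, 118, 146, 131, 232 and 289 CPM. Cd274 went from 78.4 to 343 CPM in control and from 77.3 to 254 CPM in Dnmt1iECKO ECs, and Col4a1 from 598 to 2689 CPM and from 547 to 2489 CPM. Car4 went from 846 to 204 CPM and from 723 to 185 CPM. Ifit1, a gene of the type I interferon response, showed no such order, and Gpihbp1, which holds lipoprotein lipase on capillaries, lay between 415 and 534 CPM in control throughout. Because cells with more markers were deeper, the number of markers is partly a measure of depth. The counts in CPM correct for the total but not for this choice of cells.

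**Figure D3:**
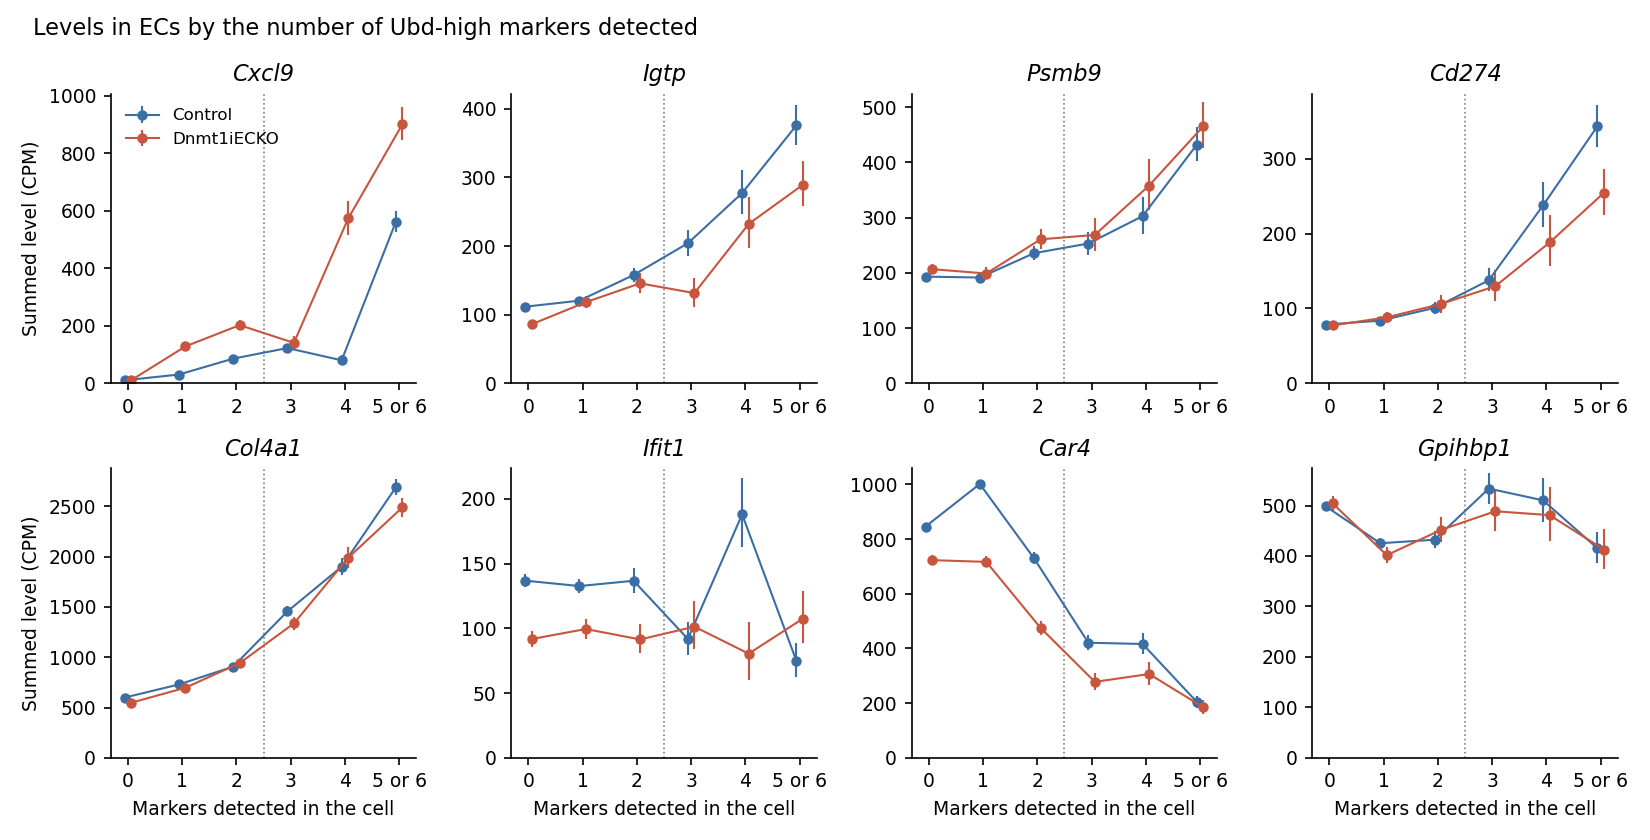
Summed level (CPM) of 8 genes in ECs with 0, 1, 2, 3, 4, and 5 or 6 of the 6 markers detected, with 95% counting intervals. Cells right of the dotted line (3 or more markers) are the Ubd-high ECs, and Igtp, Psmb9, Cd274 and Col4a1 are higher there than in cells with 0 markers, Car4 is lower, and Ifit1 follows no order.

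Members differed widely among themselves. The summed level of the GBP and IRG genes per cell had a median of 4950 CPM in control members, with quartiles of 2544 and 7749 CPM and a range of 196 to 31871 CPM. In Dnmt1iECKO members the median was 4571 CPM, with quartiles of 2199 and 7682 CPM. Class II genes had a median of 5783 CPM per control cell and 5866 CPM per Dnmt1iECKO cell, and class I genes 17512 and 17128 CPM. The spread among cells was thus much wider than the gap between libraries for these 3 groups.

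Other gene groups set the class apart less. Of 18 pan-endothelial genes, 7 were higher in members of both libraries and 0 passed 2-fold, with medians of −0.10 and −0.05. Klf2, a flow-responsive transcription factor, was 586 CPM in control and 496 CPM in Dnmt1iECKO members against 920 and 981 CPM in other ECs, and Tek, the receptor for angiopoietins, 332 and 310 CPM against 579 and 575 CPM. Emcn (endomucin) was 468 and 525 CPM against 319 and 309 CPM. Among 14 cell death genes, 3 were at least 2-fold higher in both libraries: Zbp1, a sensor of Z-form nucleic acids (137 and 137 CPM against 34.2 and 45.4 CPM), the necroptosis kinase Ripk3 (log2 1.10 and 1.19 over other ECs) and Il18bp, which binds IL-18 (35.6 and 40.5 CPM against 15.4 and 17.2 CPM). Wars, the tryptophan tRNA synthetase, was 355 and 341 CPM against 162 and 166 CPM.

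Type I interferon-stimulated genes were above other ECs in both libraries in 23 of 26 cases, with medians of 0.47 and 0.53, and 3 (Ifit2, Rsad2 and Zbp1) were at least 2-fold higher in both. Bst2 (tetherin) was 861 and 819 CPM against 551 and 468 CPM. Isg15 was 303 and 280 CPM against 257 and 220 CPM, and Ifit1 106 and 98.8 CPM against 143 and 97.2 CPM. In the ECs left once vein and type I interferon-high ECs were set aside, Isg15 was 173 and 146 CPM. Ifit1 was 69.2 and 42.9 CPM there, but Ifit1 itself was used to set cells aside. At 5000 UMIs, 11.7% of control and 10.9% of Dnmt1iECKO members had at least 3 of the 6 type I interferon genes used to name a comparison class, against 6.71% and 6.12% of other ECs. The step was smaller than for GBP genes in median. Leukocyte adhesion genes had medians of 0.04 and −0.27 over 11 genes, and among them Cd34 was the one with the widest gap upward, at 633 and 529 CPM against 326 and 276 CPM, while Icam1 was 428 and 482 CPM against 570 and 631 CPM.

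The class overlapped with ECs high in type I interferon genes, taken here as UMIs of at least 3 of Ifit1, Ifit2, Ifit3, Rsad2, Oasl1 and Usp18. Of the members, 88 in control (43.6%) and 49 in Dnmt1iECKO (37.4%) also met that rule, or 10.9% and 15.4% of the cells that met it. These shares were counted at full depth, where members were deeper than other ECs. With each cell thinned to 5000 UMIs, 11.7% of control and 10.9% of Dnmt1iECKO members met it, against 6.71% and 6.12% of other ECs. The 608 control and 213 Dnmt1iECKO ECs that met the rule at full depth and were neither members nor vein ECs are the type I interferon-high ECs compared here. Ubd and Ifit1 were used to choose one or the other class, so their levels are no finding. Gbp2, which neither rule used, was 311 CPM in control and 429 CPM in Dnmt1iECKO type I interferon-high ECs against 627 and 610 CPM in members. Vein ECs, with at least 3 vein genes, had Vcam1, a leukocyte adhesion molecule, at 797 and 1458 CPM, against 167 and 217 CPM in members. Gbp2 was 352 and 367 CPM in vein ECs, below its level in members. The IRG genes were closer: Iigp1 was 1648 and 1438 CPM in vein ECs against 1708 and 1604 CPM in members, and Irgm2 163 and 146 CPM against 157 and 141 CPM. The number of vein genes set these 2 classes apart, and its part in the Vcam1 contrast was not tested.

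In Dnmt1iECKO members the targeted gene was lower. Dnmt1 (chr9:20907209-20959888, minus strand, GRCm38) had 317 UMIs (63.0 CPM) in control and 111 UMIs (38.1 CPM) in Dnmt1iECKO members, a log2 ratio of −0.73 (interval −1.05 to −0.41), and −0.92 (interval −1.05 to −0.79) in other ECs, where it was 47.4 and 25.1 CPM. Within the class the gap was uneven. In members with 3 markers Dnmt1 was 48.6 and 49.4 CPM, with 4 it was 84.6 and 37.9 CPM, and with 5 or 6 it was 68.4 and 25.4 CPM. Without members that had UMIs of at least 2 markers of one other cell type the ratio was −0.03. Tags at the 3′ end do not read the deleted part of the gene, so they do not check the deletion itself. Of the 6 tested DNA methylation genes, 0 were higher in Dnmt1iECKO members and 1, Dnmt1, had an interval below 0.

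Across the 9805 genes, 151 (1.54%) were at least 2-fold higher and 133 (1.36%) at least 2-fold lower in Dnmt1iECKO than in control members, and the median was −0.01. Intervals lay above 0 for 1085 genes and below 0 for 1161. The GBP and IRG genes were lower by small steps: 15 of 17 were below control, 10 with an interval below 0, and 0 reached 2-fold. Their median was −0.16 in members and −0.05 in other ECs, and 0.0076 in the 68 control and 55 Dnmt1iECKO ECs with UMIs of both Ubd and Ido1, a choice added after seeing the data. Igtp was 278 CPM in control and 212 CPM in Dnmt1iECKO members (−0.40, interval −0.53 to −0.26), and Gbp8 was 221 and 157 CPM (−0.49, interval −0.65 to −0.33). Gbp5, at 356 and 396 CPM, had an interval above 0 (0.05 to 0.26).

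Cxcl9 went the other way from most GBP genes. It was 264 CPM in control and 516 CPM in Dnmt1iECKO members (log2 ratio 0.96, interval 0.86 to 1.07), short of 2-fold. In other ECs the levels were 31.9 and 122 CPM, a log2 ratio of 1.94, so its ratio was larger outside the class. Other ECs include the vein ECs, 364 in control and 273 in Dnmt1iECKO, and without these and the type I interferon-high ECs Cxcl9 was 27.9 and 85.6 CPM. The UMIs were unevenly spread: 68 of 202 control members held 1330 UMIs and 63 of 131 Dnmt1iECKO members held 1503. The highest 11 control cells held 68.7% of the control UMIs, and the highest 7 Dnmt1iECKO cells held 59.7%. With members thinned to 5000 UMIs, 20.3% of control (interval 14.9 to 26.6) and 39.1% of Dnmt1iECKO members (interval 30.6 to 48.1) had a Cxcl9 UMI. Epithelial cells of the same libraries had one in 0 of 112 control cells (upper limit 3.24%) and in 2.94% of 68 Dnmt1iECKO cells. By number of markers Cxcl9 was 122 and 141 CPM in members with 3, 79.9 and 574 CPM with 4, and 563 and 902 CPM with 5 or 6.

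Cxcl10 was 609 CPM in control and 536 CPM in Dnmt1iECKO members (−0.19, interval −0.27 to −0.10), whereas in other ECs it was 175 and 270 CPM (0.63), and 104 and 132 CPM in those left once vein and type I interferon-high ECs were set aside. This direction depended on the vein gene limit: with vein-like members kept, 225 control and 162 Dnmt1iECKO cells, the ratio for Cxcl10 was 0.29. Cd274 was 229 and 188 CPM (−0.28, interval −0.43 to −0.14), against 0.15 in other ECs. Of 8 checkpoint genes tested, 4 had intervals below 0 and 0 above, with a median of −0.13.

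Class II genes were higher in Dnmt1iECKO members by small steps. All 8 were above control, 3 with an interval above 0, and the median was 0.12, beside 0.25 in other ECs. Cd74 was 3133 and 3406 CPM (0.12, interval 0.08 to 0.16). Of 23 class I genes, 4 had intervals above and 8 below 0, with a median of −0.04. Type I interferon-stimulated genes had a median of 0.00 over 26 genes, with 0 past 2-fold either way. NF-kB and TNF targets had a median of 0.13 over 18 genes, with 2 past 2-fold each way. Among leukocyte adhesion genes 1 of 11 was 2-fold higher, Sele (E-selectin), at 37.8 CPM in control and 81.3 CPM in Dnmt1iECKO members. In Sele the top 11 control members held 94.2% of the control UMIs. Vcam1 was 167 and 217 CPM in members and 169 and 412 CPM in other ECs, but 81.6 and 110 CPM in the ECs left once vein and type I interferon-high ECs were set aside. Il6 was 3.97 and 17.8 CPM and was the other NF-kB target past 2-fold upward, with UMIs in 8 control and 7 Dnmt1iECKO members. The chemokine genes Ccl2 (109 and 10.6 CPM) and Ccl7 (36.6 and 3.09 CPM) were lower in Dnmt1iECKO members, but 1 control cell held 90.2% of the control UMIs of Ccl2 and 98.4% of those of Ccl7. Of 14 cell death genes 1, Casp1, was past 2-fold (4.17 and 21.3 CPM), with 38.7% of its Dnmt1iECKO UMIs in 1 cell.

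Aerocyte genes were lower in Dnmt1iECKO members. All 9 had intervals below 0, 2 were at least 2-fold lower, and the median was −0.67 in members and −0.53 in other ECs. Rgs6, a regulator of G protein signaling, was 221 CPM in control and 72.0 CPM in Dnmt1iECKO members (−1.61), and Fibin was 84.2 and 41.8 CPM (−1.01). Cell cycle genes were higher: 12 of 15 were above control, 10 with an interval above 0, with a median of 0.42 in members and 0.48 in other ECs. In the 34 and 22 ECs that met the rule after thinning to 2000 UMIs the cell cycle median was −0.71. Cdk1, the mitotic kinase, was 35.2 and 70.7 CPM (1.01, interval 0.71 to 1.30). It was found in 31 control and 24 Dnmt1iECKO members, and the top 5% of members held 86.4% and 78.6% of its UMIs. For Mki67 these shares were 81.1% and 83.5%. Tumor capillary and tip cell genes had a median of 0.06 over 24 genes and 0 past 2-fold. General capillary genes had a median of 0.11. Artery genes had a median of 0.53 over 9 genes in members and 0.16 in other ECs, with 2 past 2-fold: Mgp, an inhibitor of calcification whose control UMIs in members were to 97.1% in the top 11 cells, and Bmx (log2 ratio 1.75), a kinase of arterial ECs found in 14 control and 13 Dnmt1iECKO members. Efnb2 was 183 and 126 CPM (−0.54), so the artery genes did not share a direction.

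Among the genes with the highest ratios, Gdpd3, a lysophospholipase D of the glycerophosphodiesterase family, stood first. It had 26 UMIs in 23 control members (5.17 CPM) and 352 UMIs in 84 Dnmt1iECKO members (121 CPM), a log2 ratio of 4.55 (interval 3.97 to 5.18). It is at chr7:126766334-126775649 (plus strand). At 5000 UMIs it was found in 2.03% of control and 37.5% of Dnmt1iECKO members, and in 0 of 112 and 1.47% of 68 epithelial cells. Other ECs had nearly the same ratio (4.48, from 6.47 to 144 CPM), and in Dnmt1iECKO ECs Gdpd3 ran from 197 CPM in cells with 0 markers to 124 CPM in those with 5 or 6. The difference in Gdpd3 was therefore seen across ECs and not only in the class.

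After it came Spp1, Rgs2, Dnah12, Gm42047, Tpm2, Col3a1, Hist1h2ae and Nbl1. Several rested on 1 cell. A single Dnmt1iECKO cell held 83.9% of the UMIs of Dnah12 (an axonemal dynein), 80.1% of Spp1 (osteopontin), 71.2% of Tpm2 (a tropomyosin) and 53.8% of Col3a1 (a fibrillar collagen). For Gm42047 the highest cell held 15.6%, and the gene was 16.9 CPM in control and 68.3 CPM in Dnmt1iECKO members (2.02), with 1.40 in other ECs. Nbl1, a BMP antagonist, was 11.5 and 40.8 CPM, and Rgs2 was 7.35 and 39.1 CPM, with 29.4% and 28.9% of the Dnmt1iECKO UMIs in the highest cell. Hist1h2ae, at 19.3 and 70.0 CPM, is one of a family of near-identical histone genes and its reads may be split among them.

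**Figure D4:**
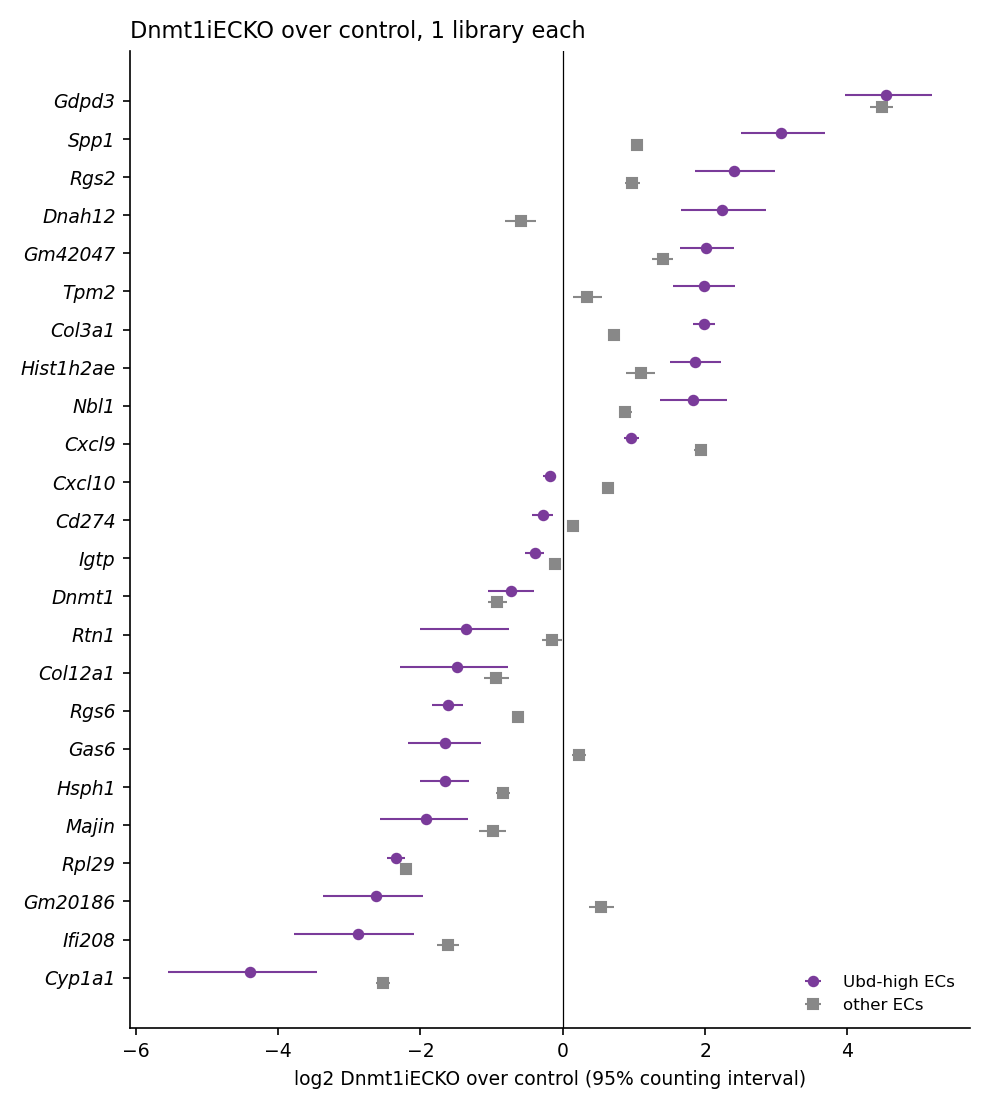
Log2 ratio of Dnmt1iECKO over control, with 95% counting intervals, in Ubd-high ECs and in other ECs, for 9 of the highest and 10 of the lowest genes in members and for Dnmt1 and 4 interferon genes. Gdpd3 (4.55 and 4.48) and Rpl29 (−2.34 and −2.20) had nearly the same ratio in both, while Dnah12, Gm20186 and Gas6 lay on opposite sides of 0.

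Lowest was Cyp1a1, a cytochrome P450 induced through the aryl hydrocarbon receptor, whose ligands include products of tryptophan breakdown. Cyp1a1 had 328 UMIs in 57 control members (65.2 CPM) and 9 UMIs in 8 Dnmt1iECKO members (3.09 CPM), a log2 ratio of −4.40 (interval −5.54 to −3.46). In other ECs it was 239 and 41.6 CPM (−2.52). At 5000 UMIs 15.7% of control and 0.781% of Dnmt1iECKO members had a UMI. Ido1, the first enzyme of the kynurenine pathway and a marker that chose the cells, differed by −0.25 in members and by 0.19 in other ECs. Of the 9 tested genes of tryptophan and amino acid stress only Cyp1a1 was past 2-fold. Whether tryptophan breakdown bears on the level of Cyp1a1 was not tested.

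Ifi208, of the interferon-inducible PYHIN family, was 35.4 CPM in 83 control members and 4.80 CPM in 9 Dnmt1iECKO members (−2.88, interval −3.78 to −2.10), with −1.61 in other ECs. Rpl29, a ribosomal protein gene, was 939 CPM in control and 185 CPM in Dnmt1iECKO members (−2.34, interval −2.47 to −2.21), found in 201 of 202 and 119 of 131. The ratio was −2.20 in other ECs. Ribosomal protein genes have many near-identical copies, so a part of this could lie in how reads were assigned, which was not tested. Hsph1, a heat shock protein, was 91.6 and 29.2 CPM in 117 and 44 members (−1.65), and Hspa1a (353 and 155 CPM) and Hspa1b (304 and 132 CPM) were also lower. Majin was 35.2 and 9.26 CPM and Rtn1 24.6 and 9.60 CPM. The remaining lowest genes rested on few control cells: 1 cell held 77.9% of the control UMIs of Gm20186, 57.3% of Gas6 (a ligand of TAM receptors) and 40.2% of Col12a1. The serpins Serpina3f (84.0 and 39.4 CPM) and Serpina3g (85.8 and 40.1 CPM), named after their values were seen, are near-identical neighbors.

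**Figure D5:**
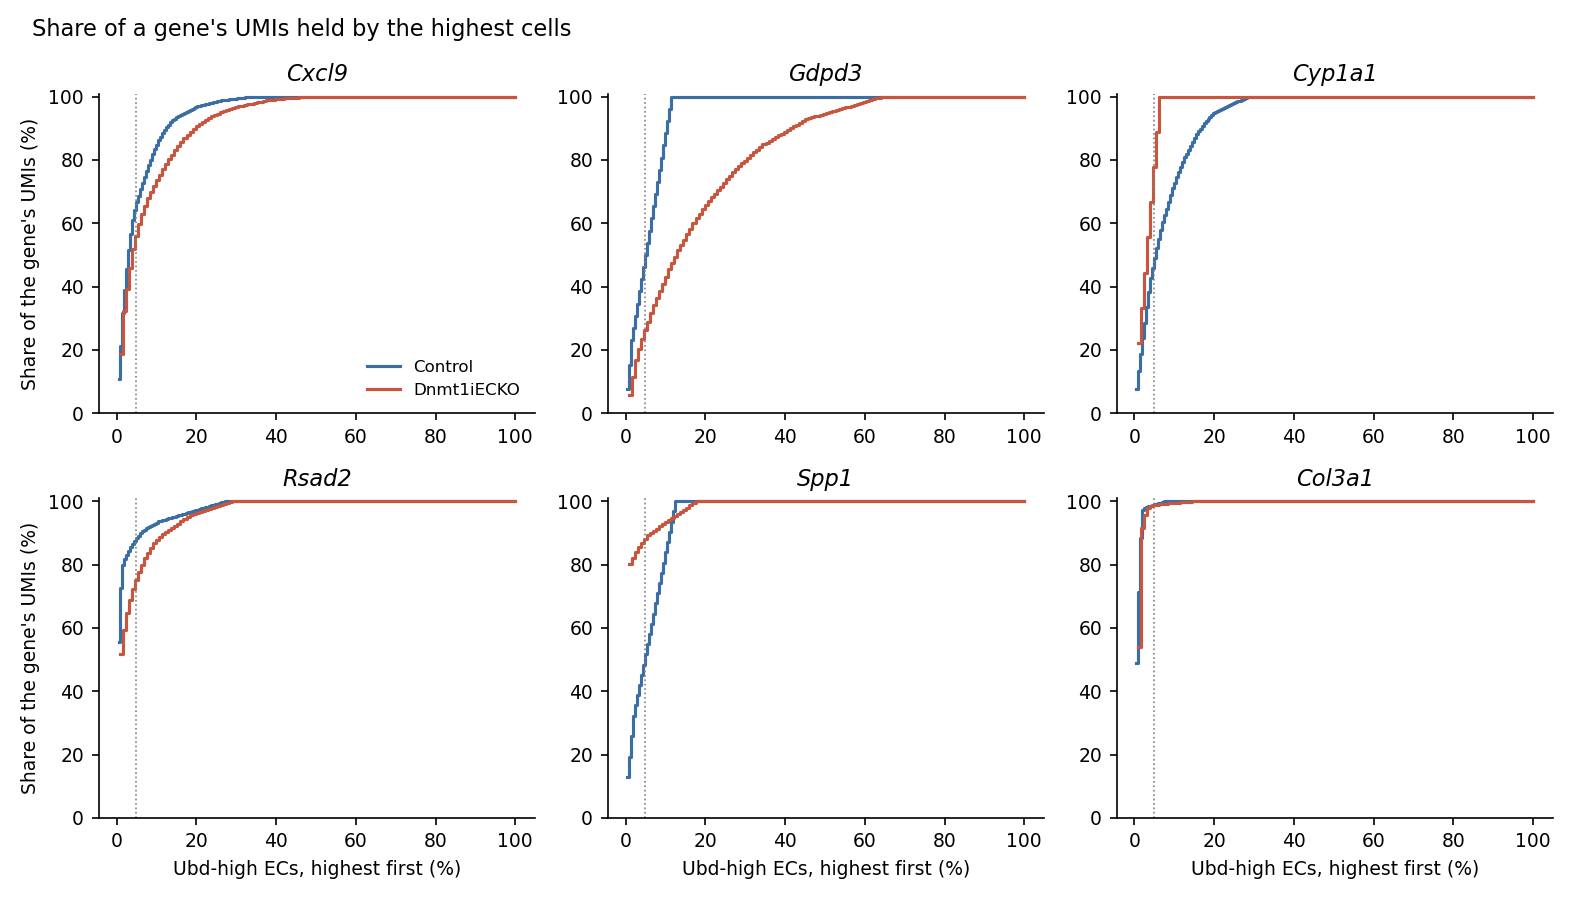
Cumulative share of a gene's UMIs (y axis, percent) against the share of Ubd-high ECs taken from the highest down (x axis, percent), for 6 genes in each library, with the top 5% marked by a dotted line. Gdpd3 in Dnmt1iECKO and Cyp1a1 in control climb gradually, while for Spp1 in Dnmt1iECKO the first cell alone holds 80.1%.

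Markers of other cell types moved with the condition. Summed levels in members were 389 CPM in control and 1194 CPM in Dnmt1iECKO for the 6 fibroblast genes (476 and 949 CPM in other ECs) and 26.0 and 64.8 CPM for the 11 macrophage, monocyte and neutrophil genes (48.6 and 91.4 CPM). UMIs of at least 2 of the latter were in 14 control (6.93%) and 29 Dnmt1iECKO members (22.1%), and of at least 2 fibroblast genes in 10 (4.95%) and 11 (8.40%). The 13 T and natural killer cell genes summed to 1.39 and 5.15 CPM, with 8 and 4 of them at 0. Alveolar type 1 genes went from 206 to 149 CPM and type 2 genes from 39.5 to 18.2 CPM. Their part in the gene counts was not tested, but the calls changed without these cells. Without members that had UMIs of at least 2 markers of one of 7 other types, 132 control and 82 Dnmt1iECKO members remained, and 85 rather than 151 genes were at least 2-fold higher, 25 of them among the 151. Fewer genes were tested there, 7954 with the rule's genes counted, so these counts do not share a base. Of the 133 lower genes, 28 were still at least 2-fold lower. Cxcl9, Gdpd3, Cyp1a1 and Rpl29 kept their direction under every alternative tried.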

How the data were processed

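RNA from live CD31+CD45- cells was read with the 10x Genomics 3′ assay, and the deposited values are UMI counts per gene and cell, made by the authors with Cell Ranger on mm10 and not normalized. The files are filtered matrices. Groups came from the sample labels. Members were found by the stated rule with Python 3.11.15, scipy 1.17.1 and pandas 2.3.3. UMIs were summed per class and library and divided by the class total (CPM). Ratios were taken between these sums for genes with at least 50 UMIs in members, with exact conditional intervals. CPM had exact Poisson intervals and shares had exact Clopper-Pearson intervals. A class at 0 was set to a floor of 3 UMIs in a ratio. No test was run, since there was 1 library per condition. Thinning drew 2000 or 5000 UMIs per cell without replacement. Doublets were scored with Scrublet (scanpy 1.11.5) and kept. The calculation was tested on simulated data.

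The members and gene lists were chosen with earlier results of these data known. Named genes were the 6 markers, the genes of the lists, the 10 leading genes, and both ends of the Dnmt1iECKO ratio, 10 genes at either end, among genes with at least 100 UMIs and found in at least 10% of the members of 1 library, and genes that met a rule are not all reported here. Alternatives varied the markers, filters, depth, scaling and the cells left out. Promoters came from RefSeq on GRCm38.p6, and gene positions from GENCODE on GRCm38. Leading genes had no promoter entry in 3 of 10 cases.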

Additional observations from a re-analysis of the deposited data

Results flagged for a closer look

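The genes of the rule were set apart, which left 301 listed or named genes. Of these, 21 had ratios of Dnmt1iECKO over control in opposite directions in Ubd-high ECs and in other ECs, with both counting intervals off 0. Of the 21, 9 were at least 2-fold apart. Outside these counts, the markers Tnfrsf11b (0.16 and −0.30), Ildr2 (−0.42 and 0.72) and Ido1 (−0.25 and 0.19) also had opposite directions. With 1 library per condition none of these differences was tested. The log2 ratios in Ubd-high ECs and in other ECs were as follows. The neutrophil chemokine gene Cxcl2 stood at −0.89 and 1.10, with 84.1% of the control UMIs of members in 1 cell. Ptgs2 (cyclooxygenase-2) stood at −2.69 and 1.26, with control UMIs in 5 members. Amigo2 stood at −1.28 and 0.78, with 52.4% of the control UMIs in 1 cell. Pdpn (podoplanin) stood at −0.85 and 0.74 and was found in 5 control and 4 Dnmt1iECKO members.

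The mesothelial gene Upk3b stood at −4.70 and 0.62. Its Dnmt1iECKO count in members was 0, so the first value was computed against the floor of 3 UMIs and its level was at least that much lower, and all of its control UMIs were in 1 cell. Wt1 stood at −2.12 and 1.09, with UMIs in 4 control and 2 Dnmt1iECKO members. Dnah12 stood at 2.24 and −0.59, Gm20186 at −2.62 and 0.54, and Gas6 at −1.65 and 0.23. In each of the 9 genes a single cell held between 52.4% and 100% of the member UMIs of 1 library.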

How the results depend on the processing

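Of 90 values that answer a comparison under an alternative, 65 stayed within limits and 25 moved. The limit was a fixed fold change for a count of genes and the counting interval of the main value otherwise. A count of genes has no direction to change. The share of Ubd-high ECs and the Dnmt1 ratio could change direction, and neither did. Of 966 values for lists and named genes, 226 moved and 20 changed direction. With at least 4 markers, 71 genes were at least 2-fold higher and 64 lower in Dnmt1iECKO members, with Dnmt1 at −1.30 and Dnah12 at −0.23. After thinning to 2000 UMIs the counts were 57 and 85, with 99 genes lower in members than in other ECs, and Dnmt1iECKO over control medians of −0.71 (cell cycle) and −0.44 (dissociation); Gm20186 was 0.54, Gas6 1.37 and Col12a1 0.96. With no limit on vein genes Cxcl10 was 0.29. With UMIs of both Cdh5 and Pecam1, 100 genes were higher, Dnah12 was −0.33 and Col3a1 −0.56. Without cells with UMIs of at least 2 markers of another type, 85 were higher and 107 were lower in members than in other ECs, Dnmt1 was −0.032, the NF-kB median of members over other ECs 0.11, Gm20186 0.0032 and Gas6 0.68. Without cells with 3 cell cycle genes, 69 were lower, 122 and 92 were higher and lower in members than in other ECs, and Gm20186 was 0.72. Without the deepest 5% of members, 70 were lower, 161 were higher in members than in other ECs, Dnah12 was −0.30, Gm20186 0.17 and Gas6 0.18. With UMIs of both Ubd and Ido1, chosen after seeing the data, 60 were higher and 70 lower, Dnmt1 was −1.37, the GBP and IRG median 0.0076, Cxcl10 0.10, Dnah12 −1.49 and Gm20186 0.0026. With at least 20 UMIs, 333 and 326 genes were higher and lower in Dnmt1iECKO and 272 lower in members than in other ECs. With at least 200 UMIs these were 35, 32 and 78, and 125 were higher in members than in other ECs. The causes were not tested, beyond the number of genes tested in the last 2 settings. Several other settings tested fewer genes than the main one. With the rule's genes counted, these were 8254 with at least 4 markers and 4411 after thinning to 2000 UMIs. Without cells with markers of another type they were 7954, and without cells with 3 cell cycle genes 8306. Without the deepest 5% of members they were 9171, and with UMIs of both Ubd and Ido1 7010. Median-of-ratios size factors shifted all genes by 0.014. No paired analysis was possible because each condition has 1 library, and the labels give no replicate number. Depth limits genes with few UMIs: 317 and 111 for Dnmt1.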
